A study of Mus musculus with 3 samples.

Results

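The Bcl2 family decides whether a cell commits to mitochondrial apoptosis, and 10 of its genes were followed here among the 32285 genes counted in 3 single-cell libraries of mouse embryonic stem cells. They were taken from a list of symbols that was drawn up with earlier results of these data known. The list held 2 survival genes (Mcl1 and Bcl2l1), 3 effectors (Bax, Bak1 and Bok) and 5 genes of the BH3-only class (Bcl2l11, Bad, Bid, Bbc3 and Pmaip1). All 10 symbols were found, each under a single identifier. Values were read over barcodes with at least 15000 unique molecular identifiers (UMIs, a tag per captured RNA molecule) and 1 to 20% mitochondrial UMIs, which left 6480 cells.

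The cells were E14, an embryonic stem cell line on the 129/Ola background, kept in serum with leukemia inhibitory factor. At 24 h after seeding, cells received 250 ug/mL cycloheximide, a blocker of translation elongation, for 3 h or for 6 h, in 0.007% ethanol. The control received ethanol alone for 6 h, so the 3 h library has no control of matching duration. All cells were trypsinised, frozen, thawed and tagged at the 3' end of polyadenylated RNA with 10x Genomics 3' v3 chemistry. Each condition is 1 library of 1 cell line, so no difference has a replicate check and no test between conditions was made. The labels do not say whether cultures were pooled.

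The libraries held 115188502 to 150987519 UMIs, and the kept cells (2187 in the control, 1739 after 3 h and 2554 after 6 h) carried 87.3% to 92.9% of them. Median depth was 43160, 51726 and 46200 UMIs per cell in that order, and 7 barcode sequences were kept in more than 1 library. Of 8 embryonic stem cell markers, 8 were above 1 CPM (UMIs per 1000000) in every library, with a summed level of 6656 to 7664 CPM. The 6 fibroblast or feeder markers summed to 2.23 to 3.09 CPM. Of these, Col3a1 was at 0 and Thy1, the highest, at 1.05 to 2.11 CPM. The primitive endoderm list summed to 8.14 to 12.5 CPM, and the 2-cell-like list to between 0.00713 and 0.583 CPM. The trophoblast list summed to 32.7 to 36.6 CPM, with Elf5 at 0. Its highest gene was Krt8 in the control (24.2 CPM) and after 3 h (17.9 CPM), and Tfap2c after 6 h (18.3 CPM).

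In healthy cells the survival proteins Mcl1 and Bcl-xL (the product of Bcl2l1) hold Bax and Bak in check at the outer mitochondrial membrane. BH3-only proteins, several of them switched on by stress, bind the survival proteins or activate the effectors directly, and active Bax and Bak then open the membrane and release cytochrome c. Embryonic stem cells are known as cells close to this threshold, and Mcl1 is known for a very short-lived protein, which makes its transcript of interest when translation is blocked. The measurements below are of transcripts and say nothing of the proteins.

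Mcl1 was the survival gene with the higher level and with the larger difference between libraries. Its level was 120.0 CPM in the control, 198.6 CPM after 3 h and 184.2 CPM after 6 h (13377, 21217 and 25853 UMIs). Both treated libraries were thus above the control, and their exact 95% Poisson intervals (195.9 to 201.3 CPM and 182.0 to 186.5 CPM) lay above that of the control (118.0 to 122.1 CPM). These intervals, like all others here, cover counting error only. The log2 ratio of Mcl1 was 0.73 after 3 h (95% interval 0.70 to 0.76) and 0.62 after 6 h (0.59 to 0.65) against the control, and −0.11 between 6 h and 3 h. Among all genes whose CPM averaged 10 or more across libraries, this put Mcl1 at the 90.5th percentile after 3 h and at the 79.4th percentile after 6 h. With TMM factors, which allow for a shift in composition, the log2 ratio of Mcl1 was 0.55 after 3 h and 0.33 after 6 h, below the 1.5-fold mark at both times.

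Mcl1 lies at chr3:95658788-95663176 on the plus strand of GRCm38 (GENCODE M21, identifier ENSMUSG00000038612) and has 3 coding exons. Its 3′ untranslated region of 2353 bases holds 8 copies of ATTTA, the core letters of AU-rich elements, which are known for their part in rapid mRNA decay. The 3 copies with the highest share of A and T around them are printed below with 10 bases on each side, because AU-rich elements work as runs of A and T rather than as single copies. Capitals mark ATTTA, and the number in each name is its position in the 3′ untranslated region.
Mcl1 at 683: ttttaagaaaATTTAtgaaatgtat
Mcl1 at 944: ttttttttgtATTTAaagatcacag
Mcl1 at 1792: tagtttgcttATTTAtgtttaactc
The density of 3.40 copies per kb stood at the 83.2nd percentile of 7393 genes, whose median was 1.30 per kb and of which 65.4% had at least 1 copy. Among the other members, Bcl2l11 had 6 copies, Pmaip1 4, Bcl2l1 1 and Bok 1, and Bax, Bak1, Bad, Bid and Bbc3 had 0. The genes with a copy thus included Mcl1 and Pmaip1, both higher in the treated libraries, but also Bok and Bcl2l11, which were not. Bcl2l1 was higher after 3 h and lower after 6 h. Bbc3 and Bad, also higher in the treated libraries in CPM, had 0, as had Bax, Bak1 and Bid, which were not higher in both. Whether copies of ATTTA go with the differences between libraries was not tested. A longer form, TTATTTA followed by 2 bases of A or T, had 0 copies in Mcl1. Among the members only Bcl2l11 held it, with 1 copy, beside 15.3% of the 7393 genes with at least 1.

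Bcl2l1 encodes Bcl-xL, the survival protein that binds Bad and Bax (chr2:152780668-152831728, minus strand, ENSMUSG00000007659). It was measured at 23.9 CPM in the control, 28.3 CPM after 3 h and 21.9 CPM after 6 h. The 3 h library was the highest and the 6 h library the lowest. The log2 ratio was 0.24 after 3 h (0.17 to 0.32) and −0.13 after 6 h (−0.21 to −0.05), and the step from 3 h to 6 h was −0.37 (−0.45 to −0.30). Mcl1 UMIs outnumbered Bcl2l1 UMIs 5.02 to 1 in the control, 7.01 to 1 after 3 h and 8.43 to 1 after 6 h, so the pair shifted toward Mcl1 within each treated library whatever the scaling between libraries.

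**Figure D1:**
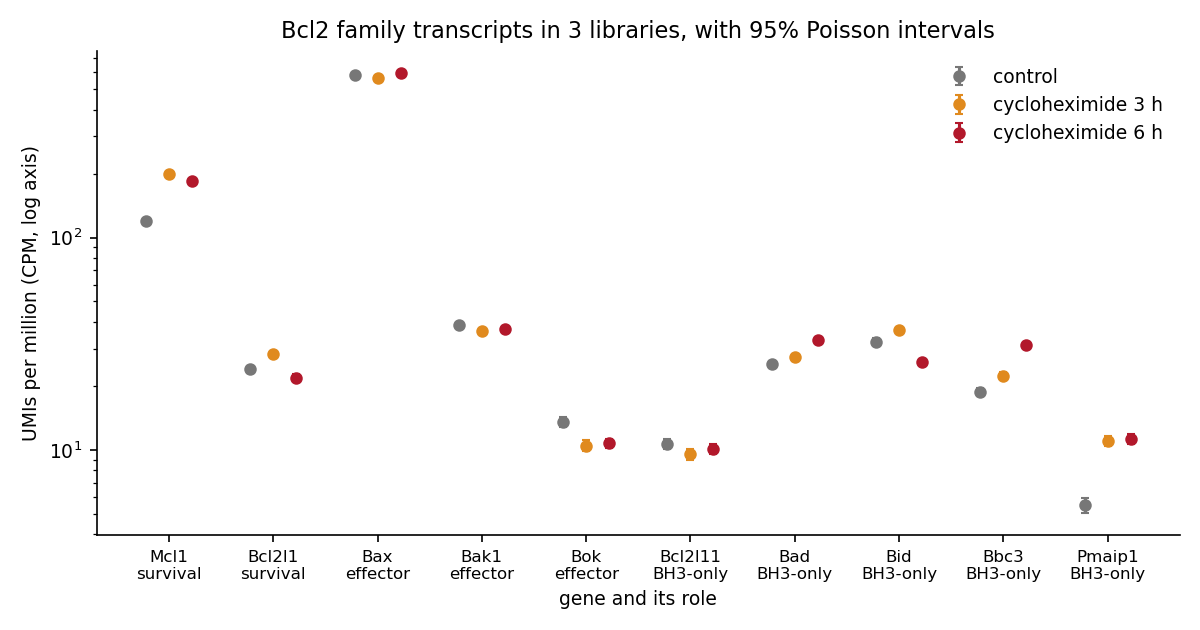
Level of each of the 10 genes in CPM (log axis) in the control and the cycloheximide libraries of 3 h and 6 h, with the role of each gene below its name and 95% Poisson intervals as bars. Bax stands above every other member in all 3 libraries, Mcl1 and Pmaip1 are higher in both treated libraries, and Bbc3 is highest after 6 h.

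Of the effectors, Bax and Bak1 differed little between the libraries and Bok was lower in both treated ones. Bax (chr7:45461697-45466898, minus strand, ENSMUSG00000003873), the effector that moves from the cytosol to mitochondria, was by far the most abundant member at 584.0 CPM in the control, 564.3 CPM after 3 h and 593.2 CPM after 6 h. It supplied 66.9%, 59.7% and 61.9% of all UMIs of the 10 genes in the same order. Its log2 ratio was −0.05 after 3 h and 0.02 after 6 h in CPM, while TMM factors gave −0.22 and −0.26 and the mean UMIs per cell gave 0.22 and 0.13. Bak1 (chr17:27019810-27029009, minus strand, ENSMUSG00000057789), the effector that sits on mitochondria and is held by Mcl1, was at 38.5, 36.2 and 37.2 CPM in the control, after 3 h and after 6 h. Its log2 ratio was −0.09 after 3 h and −0.05 after 6 h in CPM, below 0 with TMM factors as well (−0.27 and −0.34) and above 0 in mean UMIs per cell (0.18 and 0.06). The annotated span of Bak1 lies within that of Ggnbp1 on the other strand, and whether the counting used strand is not given in the sources used here. Bok (chr1:93685660-93695764, plus strand, ENSMUSG00000026278), a relative of Bax and Bak1 that is known to be controlled by protein turnover, was at 13.5, 10.5 and 10.7 CPM. Bok was the member with the lowest log2 ratio at both times, −0.37 after 3 h (−0.48 to −0.26) and −0.33 after 6 h (−0.44 to −0.23), and it stayed below 0 under the TMM and per-cell scalings. After 6 h Bid was almost level with Bok (−0.325 against −0.334), with overlapping intervals.

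The BH3-only genes among the members went different ways, and of these only Bbc3 and Pmaip1 passed 1.5-fold. Scarcer BH3-only genes outside the members passed it too. Bik had log2 ratios of 0.78 after 3 h and 1.22 after 6 h, with 2.19 CPM in the control and 5.1 CPM after 6 h. Bmf stood at 1.09 after 6 h (1.97 CPM in the control, 4.22 CPM after 6 h). Hrk went the other way, at −0.96 after 6 h (3.36 CPM in the control, 1.72 CPM after 6 h). Bbc3 (chr7:16308393-16318205, plus strand, ENSMUSG00000002083) encodes Puma, a p53 target that binds every survival protein of the family. It was at 18.7 CPM in the control, 22.4 CPM after 3 h and 31.1 CPM after 6 h (2088, 2388 and 4369 UMIs), so the levels were ordered by exposure and the 3 intervals did not overlap. The log2 ratio was 0.25 after 3 h (0.17 to 0.34) and 0.73 after 6 h (0.66 to 0.81), and 0.48 between 6 h and 3 h (0.41 to 0.55). With TMM factors Bbc3 stood at 0.08 after 3 h and 0.45 after 6 h, under the 1.5-fold mark.

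Pmaip1 (chr18:66458533-66465565, plus strand, ENSMUSG00000024521) encodes Noxa, a BH3-only protein that binds chiefly Mcl1 and is known as a target of both p53 and the integrated stress response. It was the least abundant member in the control, at 5.47 CPM (610 UMIs), against 11.01 CPM after 3 h (1176 UMIs) and 11.3 CPM after 6 h (1579 UMIs). Both treated libraries were above the control, and between them the log2 ratio was 0.03 (−0.08 to 0.14). The log2 ratio was 1.01 after 3 h (0.87 to 1.15) and 1.04 after 6 h (0.90 to 1.18), the largest of the 10 genes at both times, and 0.83 and 0.75 with TMM factors. Its mean over the 3 libraries was 9.24 CPM, so it fell short of the 10 CPM set for the counts below.

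Bad (chr19:6941861-6951899, plus strand, ENSMUSG00000024959), which links growth factor signalling to Bcl-xL, was at 25.2 CPM in the control, 27.3 CPM after 3 h and 33.0 CPM after 6 h. Its log2 ratio was 0.39 after 6 h (0.32 to 0.45), and after 3 h it was 0.11 in CPM and −0.06 with TMM factors. Bid (chr6:120891930-120916853, minus strand, ENSMUSG00000004446), which caspase-8 cleaves to pass a death receptor signal to mitochondria, was at 32.4, 36.7 and 25.9 CPM. It was highest after 3 h and lowest after 6 h, with log2 ratios of 0.18 (0.11 to 0.25) and −0.33 (−0.39 to −0.26), and the step from 3 h to 6 h of −0.50 was the largest among the 10 genes in that comparison. At its end Bid overlaps Bcl2l13 on the other strand, and Bad overlaps Gpr137, so some of their UMIs are uncertain if the counting ignored strand. Bcl2l11 (chr2:128126038-128162547, plus strand, ENSMUSG00000027381) encodes Bim, an activator of Bax and Bak, and was at 10.6, 9.53 and 10.1 CPM. Its log2 ratio of −0.16 after 3 h and −0.07 after 6 h was above 0 in mean UMIs per cell (0.11 and 0.03).

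**Figure D2:**
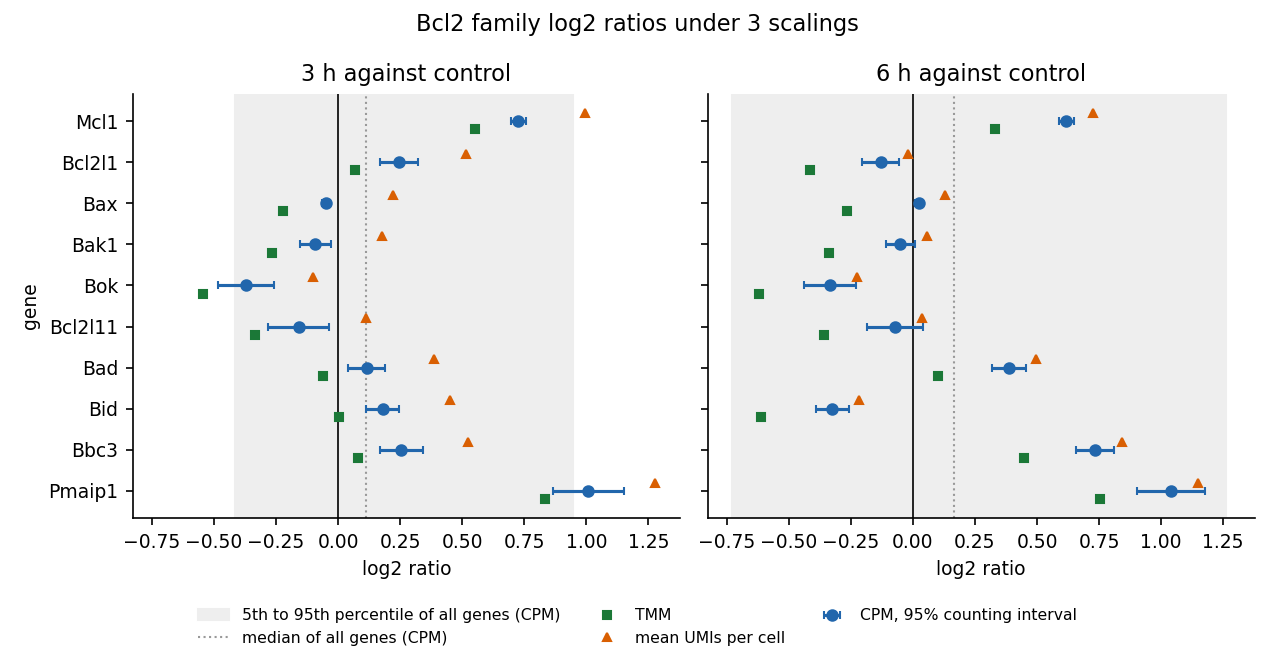
Log2 ratio of each gene after 3 h (left) and 6 h (right) against the control from CPM with its 95% counting interval (circles), with TMM factors (squares) and from mean UMIs per cell (triangles); grey marks the 5th to 95th percentile of all genes in CPM. Mcl1, Bbc3 and Pmaip1 lie to the right of 0 under all 3 scalings at both times, and Bok to the left.

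Set against all genes, the share of members past 1.5-fold was near the background. At 3 h, 1 of the 9 members averaging 10 CPM or more was higher by 1.5-fold (Mcl1, 11.1%), where 13.9% of all 7608 such genes were, and 0 were lower by as much, where 2.13% of all genes were. At 6 h, 2 of 9 were higher (Mcl1 and Bbc3, 22.2%) against 22.1% of all genes, and 0 were lower against 7.79%. Between 6 h and 3 h, 0 of 9 passed in either direction, with a background of 1.74% higher and 2.52% lower. The median log2 ratio over these 9 members was 0.11 after 3 h and −0.05 after 6 h, beside 0.11 and 0.17 over all genes. TMM factors moved the median of all genes to −0.06 after 3 h and −0.12 after 6 h, and then none of the 9 members was past 1.5-fold above the control, beside 8.61% and 11.6% of all genes. Bok and Bid were past it below the control after 6 h with TMM factors, beside 16.9% of all genes, and Pmaip1, under the 10 CPM mean, was still above 1.5-fold at both times. Relative to the median of all genes in CPM, Mcl1, Bbc3, Pmaip1 and, by a small margin after 3 h (0.115 against 0.112), Bad were higher at both times.

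A ratio of UMIs within a library does not depend on how libraries are scaled to each other. Tagging at the 3' end counts molecules, so UMIs of different genes were divided without a correction for length. UMIs of the 2 survival genes divided by UMIs of the 8 death genes gave 0.198 in the control (95% interval 0.194 to 0.201), 0.316 after 3 h (0.312 to 0.321) and 0.274 after 6 h (0.270 to 0.277). The treated libraries were both above the control, by 1.60 times after 3 h and 1.39 times after 6 h, and the 3 h library was the highest. Mcl1 carried this difference: Mcl1 alone over the death genes gave 0.165, 0.277 and 0.245, whereas Bcl2l1 alone gave 0.0328, 0.0395 and 0.0291. Bax dominates the denominator, and without it the ratio was 0.996, 1.48 and 1.29 in the same order. Against the BH3-only genes alone the survival genes stood at 1.56, 2.12 and 1.85. The order of control, 6 h and 3 h from low to high was therefore the same with every denominator given here.

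Single pairs did not all follow the sum. Mcl1 over Bak1, its partner on the mitochondrial membrane, was 3.11 in the control, 5.49 after 3 h and 4.95 after 6 h. Mcl1 over Pmaip1, the pair of a survival protein and its own antagonist, was 21.9 (20.2 to 23.8), 18.04 (17.0 to 19.1) and 16.4 (15.6 to 17.2), so it was lower in both treated libraries. Mcl1 over Bbc3 was 6.41 in the control, highest after 3 h with 8.88, and 5.92 after 6 h. Bcl2l1 over Bbc3 was 1.28 (1.21 to 1.35) in the control and 1.27 (1.20 to 1.34) after 3 h, with overlapping intervals, and 0.702 (0.670 to 0.736) after 6 h. Bcl2l1 over Bad was 0.947, 1.04 and 0.663. At 6 h the level of Bcl2l1 was thus below that of Bbc3 and of Bad, the only library of the 3 in which Bbc3 UMIs outnumbered Bcl2l1 UMIs.

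**Figure D3:**
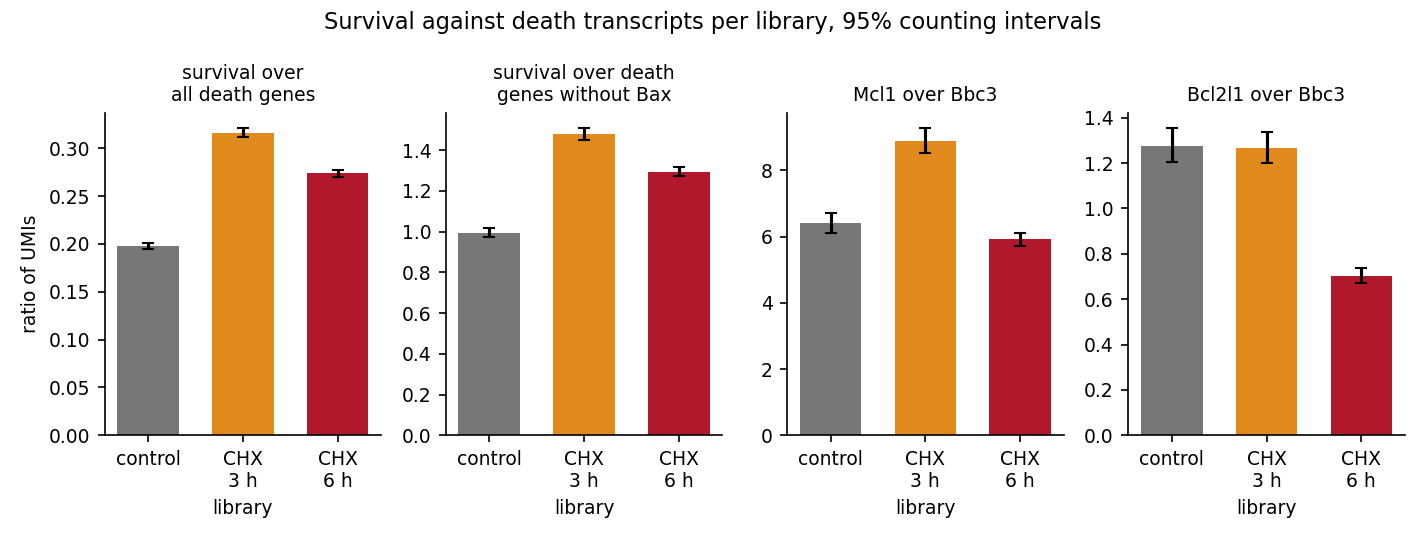
Ratios of UMIs within each library (bars, axes from 0) with 95% counting intervals, for the survival genes over all death genes, over the death genes without Bax, and for Mcl1 and Bcl2l1 over Bbc3. The first pair of panels is highest after 3 h and lowest in the control, and Bcl2l1 over Bbc3 is lowest after 6 h at 0.702.

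In single cells, Mcl1 counts were higher in both treated libraries at the 10th percentile, the median and the 90th percentile of cells. After every cell was thinned to 15000 UMIs, 80.3% of control cells had a Mcl1 UMI (95% Clopper-Pearson interval 78.6% to 81.9%), against 93.2% after 3 h and 92.1% after 6 h. The median was 2 Mcl1 UMIs per thinned cell in the control and 3 in both treated libraries. Unthinned, the shares were 97.9%, 99.5% and 99.5%. Mcl1 was also present in barcodes of 10 to 100 UMIs, which measure free RNA, at 162.8, 263.0 and 209.6 CPM, above its level in cells in all 3 libraries, and the part of free RNA in the share of cells was not tested. Cells without any survival gene UMI made up 14.4% of the control (314 cells), 4.72% after 3 h (82 cells) and 5.79% after 6 h (148 cells). Survival UMIs outnumbered those of the death genes other than Bax in 40.1% of control cells, 59.1% after 3 h and 52.9% after 6 h. The survival share of a cell's UMIs over the 10 genes had a median of 15.4%, 23.1% and 21.1%.

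Bax was seen in almost every thinned cell (99.94% to 99.96%), with a median of 8 UMIs in each library. Shares for Bad were 31.6%, 32.3% and 39.3% in the control, after 3 h and after 6 h, and those for Bid were 38.1%, 41.5% and 31.9%, in the order of their CPM levels. Bbc3 was seen in 22.9%, 25.4% and 31.9% of thinned cells and Pmaip1 in 7.73%, 14.6% and 13.2%. Unthinned, the shares were 52.4%, 55.4% and 63.7% for Bbc3 and 20.1%, 36.3% and 34.0% for Pmaip1. In free RNA Bbc3 stood at 28.3, 30.9 and 46.9 CPM and Pmaip1 at 7.23, 14.2 and 9.44 CPM.

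Cell-to-cell spread in the treated libraries was widest, relative to the mean, for Bbc3 and Pmaip1. The variance of UMIs per thinned cell divided by their mean (the Fano factor, 1 for random sampling alone) was 1.16 for Bbc3 in the control, 1.48 after 3 h and 1.54 after 6 h. For Pmaip1 it was 1.15, 1.46 and 1.47. These were the highest values of the 10 genes after 3 h and after 6 h, above Bax at 1.26 and 1.41 and Mcl1 at 1.28 and 1.25. For Bad, at a level like that of Bbc3, it was 1.02, 1.05 and 1.01. The highest Bbc3 count in a thinned cell was 4 in the control, 8 after 3 h and 10 after 6 h, so the treated libraries held a tail of cells with many Bbc3 UMIs.

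**Figure D4:**
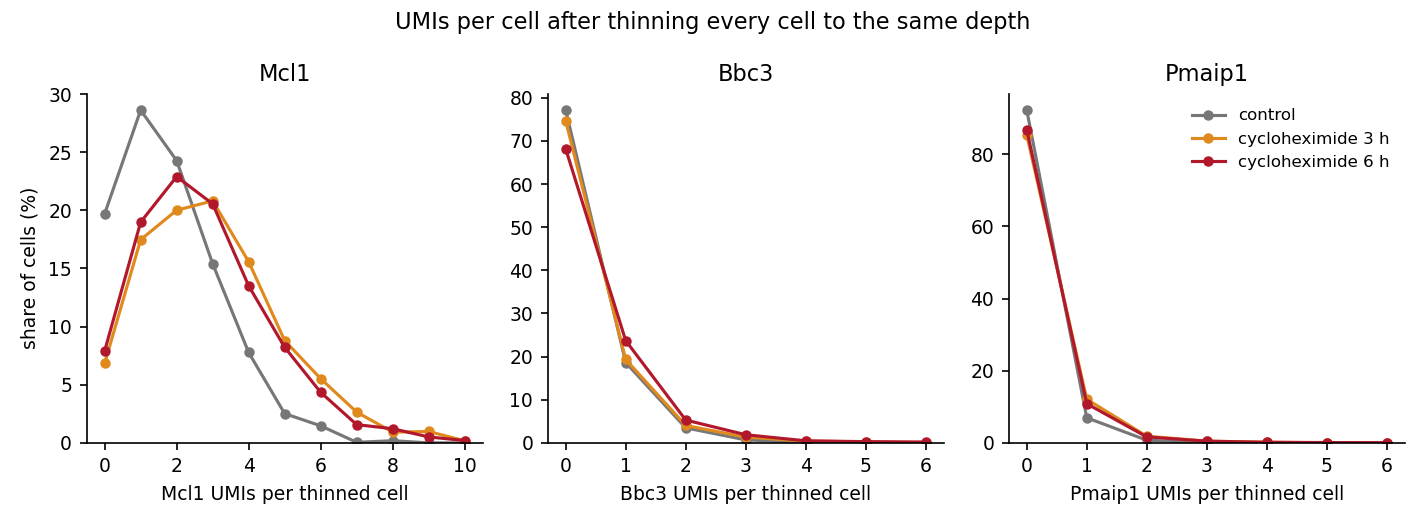
Share of cells (%) with each number of Mcl1, Bbc3 and Pmaip1 UMIs after thinning to 15000 UMIs per cell, for the control and the 3 h and 6 h libraries. The whole Mcl1 distribution lies further right in the treated libraries, while most cells have 0 UMIs of Bbc3 and Pmaip1 in all 3.

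Cells in that tail were described by the other genes they carried, a description made after the values had been seen and without a test. Cells with at least 2 Bbc3 UMIs after thinning numbered 93 in the control (4.25%), 105 after 3 h (6.04%) and 209 after 6 h (8.18%). They were set against the cells of the same library with 0 after thinning. The latter were not free of Bbc3, since their full counts held it at 12.2, 12.7 and 18.0 CPM in the same order. The cut is not a cell type: 17, 35 and 74 of the selected cells had 3 or more. Median depth was alike after 3 h (51132 against 51583 UMIs) and after 6 h (46513 against 46110 UMIs), and lower in the control (38456 against 43480 UMIs). Of 23 p53 target genes averaging 10 CPM or more, drawn up once the leading genes of these cells were known, 12 in the control, 19 after 3 h and 17 after 6 h were at least 1.5-fold higher in the Bbc3 cells. Over all genes the same fold was passed upward by 0.421%, 1.97% and 1.2%. The median log2 ratio of the list was 0.59, 1.54 and 0.94, beside −0.03, 0.01 and 0.00 for all genes. Because the list was drawn up after these cells had been seen, its gap from all genes is no test of enrichment. Cdkn1a, the p53-induced inhibitor of the cell cycle, stood at 47.3 against 25.4 CPM in the control, 107.8 against 19.3 CPM after 3 h and 123.3 against 48.8 CPM after 6 h. Plk2, a p53-responsive kinase, was at 26.2 against 9.83 CPM, 73.2 against 8.81 CPM and 40.3 against 8.47 CPM.

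Among the other members, Pmaip1 was the one that went with Bbc3 in the treated cells. In the control it stood at 6.79 CPM in the Bbc3 cells against 5.18 CPM in the cells with 0 Bbc3 UMIs after thinning. The levels were 22.1 against 9.86 CPM after 3 h and 23.4 against 9.56 CPM after 6 h. The log2 ratio was 0.38 in the control (−0.21 to 0.93), 1.16 after 3 h (0.89 to 1.42) and 1.29 after 6 h (1.09 to 1.49). Bax, a textbook p53 target too, had log2 ratios of 0.00 (−0.06 to 0.06), 0.23 (0.18 to 0.28) and 0.28 (0.25 to 0.31), so its levels differed far less. Mcl1 was at −0.06, 0.18 and −0.05 and Bcl2l1 at −0.19, 0.18 and −0.03, so neither survival gene was lower by 1.5-fold in these cells. Whether these ratios differ between libraries was not tested.

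For Bbc3 and Bax, both p53 targets, the promoter windows of 250 bases up to an annotated start that held CACGTG are printed. They are RefSeq windows on GRCm38.p6, and capitals mark CACGTG in both and, in Bax, a match to the p53 decamer motif.
Bbc3, chr7:16310181-16310430, plus strand: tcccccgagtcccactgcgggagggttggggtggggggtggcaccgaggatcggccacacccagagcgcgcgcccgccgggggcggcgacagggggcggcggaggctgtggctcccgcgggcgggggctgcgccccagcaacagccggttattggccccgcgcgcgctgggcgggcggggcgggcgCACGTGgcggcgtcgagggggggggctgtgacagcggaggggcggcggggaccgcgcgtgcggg
Bax, chr7:45466899-45467148, minus strand: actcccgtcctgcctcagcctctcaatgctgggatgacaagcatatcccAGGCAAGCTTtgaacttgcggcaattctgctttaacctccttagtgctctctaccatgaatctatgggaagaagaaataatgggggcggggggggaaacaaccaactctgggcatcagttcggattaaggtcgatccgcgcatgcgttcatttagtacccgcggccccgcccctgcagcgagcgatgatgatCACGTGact
On both strands, a p53 decamer match stood in 7.13% and CACGTG, the E-box letters, in 6.02% of 32851 such windows. RefSeq windows were at hand for 9 of the 10 members, with 3 for Bbc3 and 1 for Bax. The decamer match at 201 bases before the start was the only one in any window of the 9 members. CACGTG, by which the 2 printed windows were chosen, was found in no other window of these members. GGGCGG, the letters of an Sp1 site, was found in 32.7% of all windows, and the Bbc3 window above held 7 copies, some of them overlapping others in the run of G and C that makes up 81.6% of its bases. Other letters searched on both strands were TATAAA (12.4% of all windows), CCAAT (33.8%), TGACGTCA (1.55%) and TTCNNNGAA (7.02%), of which only CCAAT was found in a member's windows (Bcl2l11, Bbc3 and Bad). A match describes letters only and is not a binding site.

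**Figure D5:**
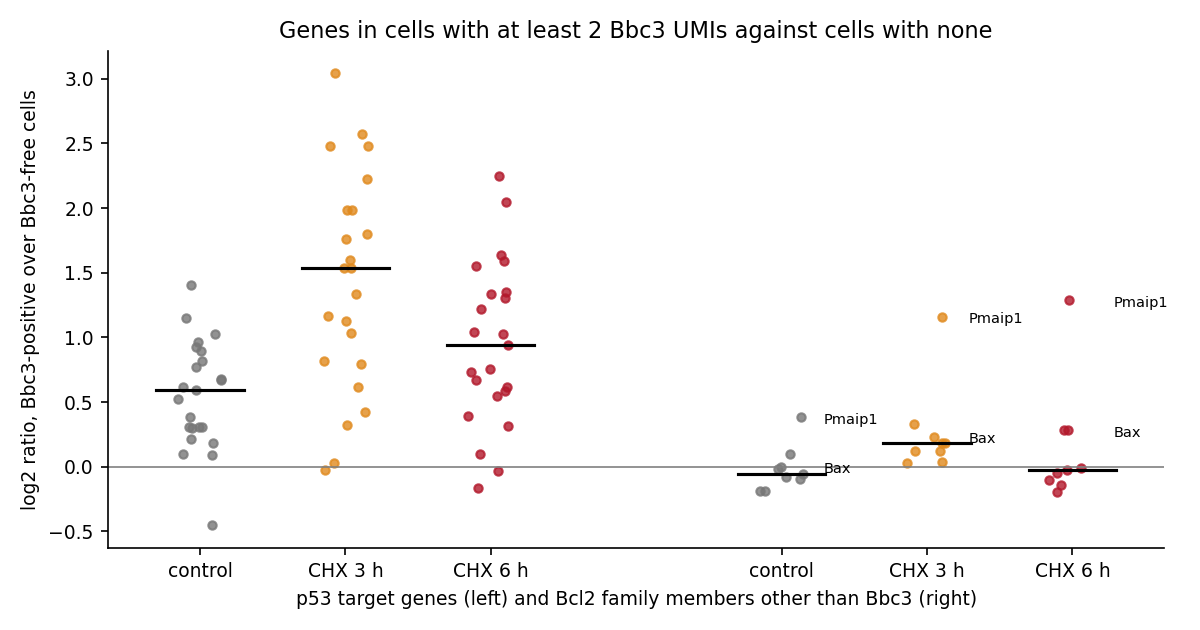
Log2 ratio of summed CPM between cells with at least 2 Bbc3 UMIs after thinning and cells of the same library with 0 after thinning. Each gene is 1 point, with 23 p53 target genes (left) and the 9 members other than Bbc3 (right), and black lines are medians. Pmaip1 stands above the other members after 3 h (1.16) and 6 h (1.29), and Bax lies at 0.00, 0.23 and 0.28.

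The order of the survival to death ratio was the same at every depth of cells. In the lowest, middle and highest terciles of UMIs per cell, the ratio was 0.186, 0.186 and 0.208 in the control, 0.323, 0.295 and 0.325 after 3 h, and 0.289, 0.253 and 0.280 after 6 h. The Mcl1 log2 ratio in these terciles was 0.81, 0.72 and 0.70 after 3 h and 0.76, 0.57 and 0.59 after 6 h. Bbc3 after 6 h had 0.47 in the lowest, 0.79 in the middle and 0.80 in the highest tercile, and after 3 h it had −0.00062, 0.37 and 0.28. In barcodes of 2000 to under 15000 UMIs, which were not counted as cells, Mcl1 stood at 103.5 CPM in the control, 271.4 CPM after 3 h and 237.4 CPM after 6 h, with ratios of 0.206, 0.550 and 0.443. The control also held 62 barcodes with under 1% mitochondrial UMIs (1 after 3 h and 8 after 6 h), in which Mcl1 was at 49.7 CPM and the ratio at 0.0904, and which were left out by the selection of cells.

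The rest of the apoptosis machinery was read from 44 further genes, of which 23 averaged 10 CPM or more. Of these 23, 2 were past 1.5-fold above the control after 3 h and 0 below, and after 6 h 4 were above and 2 below, beside the shares of all genes given above. The median log2 ratio of the 23 was 0.08 after 3 h and 0.09 after 6 h, beside 0.11 and 0.17 for all genes. The highest after 6 h were Casp2, an initiator caspase, with 0.97 (7.13, 15.0 and 14.0 CPM in the control, after 3 h and after 6 h), and Htra2, a mitochondrial protease that counters the inhibitors of apoptosis, with 0.91 (20.7, 31.1 and 38.8 CPM). Bcl2l12 (0.75) and Bcl2l13 (0.68), distant relatives of the family, came next. The lowest were Ripk1, a kinase of the death receptor pathway, with −1.02 (13.5, 10.3 and 6.68 CPM), and Huwe1, a ubiquitin ligase of the Mcl1 protein, with −0.77 (194.9, 145.6 and 114.5 CPM). Usp9x, which removes ubiquitin from Mcl1, followed with −0.49 (137.1, 114.6 and 97.8 CPM), and Vdac1, a channel of the outer mitochondrial membrane, with −0.41. Regulators of the Mcl1 protein did not all go one way, since Fbxw7, a further ubiquitin ligase subunit for Mcl1, was at 31.9, 33.6 and 40.1 CPM (log2 ratio 0.08 after 3 h and 0.33 after 6 h). With TMM factors the log2 ratios after 6 h were 0.68 for Casp2, 0.62 for Htra2, −1.30 for Ripk1 and −1.05 for Huwe1.

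Other survival genes of the family were scarce. Bcl2 was at 0.556, 1.20 and 1.07 CPM and Bcl2l2 at 4.42, 2.46 and 2.20 CPM in the control, after 3 h and after 6 h, and none of the 6 survival relatives reached a mean of 10 CPM. Mcl1 and Bcl2l1 therefore supplied most of the survival transcripts measured. Trp53 itself, the gene of p53, was at 405.9, 437.2 and 418.5 CPM.

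Genes with a pattern like that of Mcl1 were sought among 5569 genes averaging 20 CPM or more, as the nearest in the plane of the log2 ratios after 3 h and after 6 h, a measure that rests on 2 ratios from 3 libraries with a shared control. The nearest were Zfp871, Atg16l1, Asxl1, Reep3 and Gm21411, with distances of 0.00931 to 0.0445, and 35 genes lay within 0.1 of Mcl1. The nearest to Pmaip1, the member with the largest ratio after 6 h, were Ddx55, Fignl1, Sox4, Abraxas2 and Atf4, and 14 genes lay within 0.1. Ddx55, the closest, had log2 ratios of 1.00 after 3 h and 1.04 after 6 h.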

How the data were processed

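Unnormalised UMI counts were deposited by gene and barcode, made by the authors with Cell Ranger 4.0.0 on mm10, per the submitters' processing notes; annotation and strand setting are not given in the sources used here. The members and lists were chosen with earlier results of these data known. UMIs were summed over kept cells and scaled to CPM with Python 3.11.15 (numpy 2.4.6, scipy 1.17.1); log2 ratios used a prior of 0.5 counts. Intervals (95%) are exact Poisson, conditional binomial or Clopper-Pearson. The background was all genes averaging 10 CPM or more. Cells were thinned without replacement to 15000 UMIs, and none were shallower. Doublets were not removed. TMM factors came from edgeR 4.0.16 in R 4.3.3. The interval and ratio code was tested on simulated counts. All 10 members were named, with the 4 highest and 4 lowest pathway genes after 6 h and the 5 nearest genes to Mcl1 and to the member with the largest ratio. Promoter windows are RefSeq's on GRCm38.p6; gene spans and 3′ ends are from GENCODE M21, matched by identifier. Protein sequences were not used here.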

Additional observations from a re-analysis of the deposited data

Results flagged for a closer look

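Bcl2l1, Bax and Bid had log2 ratios of opposite sign at the 2 exposure times. Bcl2l1 was at 0.24 after 3 h and −0.13 after 6 h against the control. With TMM factors Bcl2l1 had 0.07 and −0.42, and in mean UMIs per cell 0.51 and −0.02. After 6 h Bcl2l1 was at 0.12 (−0.05 to 0.30) in the lowest tercile of UMIs per cell, and at −0.18 and −0.19 in the middle and highest. Bid was at 0.18 after 3 h and −0.33 after 6 h. With TMM factors Bid had 0.0051 and −0.61, and in mean UMIs per cell 0.45 and −0.22. Bax was at −0.0494 after 3 h and 0.0226 after 6 h, and with TMM factors its sign was the same at both times (−0.22 and −0.26). Both ratios of each gene share the control library, and with 1 library per group the differences were not tested.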

How the results depend on the processing

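No paired analysis was possible because each group is 1 library without a replicate number. The survival to death ratio kept its order (control, 6 h, 3 h) in every alternative run. It moved beyond its counting interval with 10% free RNA subtracted (0.189, 0.301 and 0.267 in the control, after 3 h and after 6 h), without Bax (0.996, 1.48 and 1.29), without cells above 2 times the median UMIs (0.192 in the control and 0.310 after 3 h), without a lower mitochondrial limit (0.192 in the control) and as a mean over cells (0.279 after 6 h). The number of members above 1.5-fold after 3 h (1) was 0 of 9 with TMM factors (8.61% of all genes), 2 of 10 with a floor of 1 CPM (18.7%) and 0 of 9 with a fold of 2 (4.32%). At 6 h (2) it was 0 of 9 with TMM factors (11.6%), 1 of 2 with a floor of 50 CPM (15.2%), 3 of 10 with a floor of 1 CPM (28.1%) and 0 of 9 with a fold of 2 (8.65%). Members lower by 1.5-fold (0) were 2 of 9 after 6 h with TMM factors (16.9%), and between 6 h and 3 h 1 of 9 with TMM factors (4.22%) or mean UMIs per cell (5.28%). TMM factors changed the sign of 7 of 30 log2 ratios and mean UMIs per cell of 10, and dropping the deepest cells of 1. Depth limits the shares of cells: the median over the members (30.0%, 33.2% and 31.9%) was 64.5%, 72.8% and 66.4% unthinned, 21.1%, 23.4% and 23.4% at 10000 UMIs and 50.2%, 54.4% and 52.4% at 30000 UMIs. With at least 3 Bbc3 UMIs, the p53 gene counts in Bbc3 cells were 13, 19 and 19 of 23 in the control, after 3 h and after 6 h. The shares of all genes were 3.94%, 5.43% and 2.68%. Both this cut and the gene list were chosen after seeing the data, so the counts are no test of enrichment. In the control 2 (Rrm2b and Tigar) were lower by 1.5-fold. Rrm2b rested on 1 UMI in the Bbc3 cells (interval of the log2 ratio −7.56 to 0.23) and Tigar on 22 UMIs (−1.32 to −0.04).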
